A study of Homo sapiens with 30 samples.

Results

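The messenger RNAs of 10 core circadian clock genes were measured in T47D cells: PER1, PER2, PER3, CRY1, CRY2, BMAL1 (also written ARNTL), CLOCK, NR1D1, NR1D2 and DBP. They were chosen by name, with earlier results of these data known. All 10 were found among the 60554 genes of the count files and passed the filter on low counts. T47D is a human breast cancer line of luminal type that carries the progesterone receptor. The libraries came from passages 18 to 20 and fell into 6 groups of 2. The siControl and siCEBPA groups, transfected with a control siRNA or with one against CEBPA, were each left untreated or given the synthetic progestin R5020 at 10 nM after a short arrest of 4 hours. CEBPA encodes the transcription factor C/EBPα. The ICRF untreated and ICRF progestin groups carry no siRNA, arrest or time label. The name ICRF usually denotes a topoisomerase II inhibitor, and the series' design text speaks of Topo2a inhibition, but no dose is given. In the titles, siRNA libraries without hormone are marked T0 and those with progestin T360, with no unit. In the siRNA-treated cells the effects of hormone and of time therefore cannot be told apart, and every progestin difference in them is also one between those time labels. Whether treated and untreated ICRF cells differed in time is not given, so hormone and time cannot be told apart there either. The labels do not say whether the 2 libraries of a group were separate cultures, so the p-values rest on a spread between libraries that may be technical. In bulk RNA, fewer cells expressing a gene and less of its RNA per cell cannot be told apart.

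The circadian clock is a feedback loop found in most cells. CLOCK and BMAL1 form a dimer that binds E-box sequences and switches on the PER and CRY genes, whose proteins come back to inhibit that dimer. In a second loop the nuclear receptors REV-ERBα (NR1D1) and REV-ERBβ (NR1D2) repress BMAL1 from RORE sequences, and DBP activates genes through D-box sequences. PER1 is also a classic rapid target of steroid receptors such as the glucocorticoid receptor. Breast epithelium has a working clock, whose rhythm runs separately in each cell of an unsynchronised culture.

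RefSeq promoter windows (250 bases before an annotated start, GRCh38.p14) were at hand for all 10 genes, 15 windows in total. They were searched on both strands for the letters of clock elements: the E-box CACGTG, held by 6.34% of the 35116 windows of all genes, the E-box-like CACGTT (4.55%), the D-box TTATGTAA or TTACGTAA (0.94%) and the REV-ERB and ROR half-site AGGTCA (12.1%). A window that holds a match is shown for each of 5 genes with large progestin differences. Capitals mark a motif match on either strand, and bases inside exons of the deposited annotation were left out.
PER1, chr17:8152436-8152654, minus strand: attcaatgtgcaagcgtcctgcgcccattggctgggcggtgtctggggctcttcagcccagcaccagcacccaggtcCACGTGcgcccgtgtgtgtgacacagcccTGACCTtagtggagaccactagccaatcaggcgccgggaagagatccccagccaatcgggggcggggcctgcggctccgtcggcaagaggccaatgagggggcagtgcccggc
PER2, chr2:238288611-238288860, minus strand: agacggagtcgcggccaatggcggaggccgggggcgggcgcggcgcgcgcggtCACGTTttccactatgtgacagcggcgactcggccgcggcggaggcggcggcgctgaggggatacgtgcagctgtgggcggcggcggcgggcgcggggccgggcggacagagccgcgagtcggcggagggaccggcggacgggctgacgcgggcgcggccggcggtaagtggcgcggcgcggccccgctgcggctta
PER3, chr1:7784041-7784290, plus strand: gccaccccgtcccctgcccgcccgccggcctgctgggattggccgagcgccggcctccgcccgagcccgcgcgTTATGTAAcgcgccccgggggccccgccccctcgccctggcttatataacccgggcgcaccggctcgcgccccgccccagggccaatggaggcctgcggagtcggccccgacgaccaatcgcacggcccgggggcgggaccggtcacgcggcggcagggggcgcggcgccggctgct
CRY2, chr11:45847282-45847405, plus strand: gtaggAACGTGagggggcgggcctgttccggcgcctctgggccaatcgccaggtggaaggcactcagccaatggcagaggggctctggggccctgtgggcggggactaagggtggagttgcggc
NR1D2, chr3:23945871-23946120, plus strand: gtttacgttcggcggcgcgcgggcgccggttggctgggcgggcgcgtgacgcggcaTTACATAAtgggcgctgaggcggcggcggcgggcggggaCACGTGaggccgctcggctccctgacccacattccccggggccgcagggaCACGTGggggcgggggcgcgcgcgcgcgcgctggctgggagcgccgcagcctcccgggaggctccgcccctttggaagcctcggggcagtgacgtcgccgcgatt
The PER1 window holds an E-box 173 bases and a half-site 144 bases before its start. The PER2 window holds an E-box-like match at 197 bases, and the CRY2 window one at 188 bases. Both CRY2 windows also have the REV-ERB and ROR half-site, at 62 and 64 bases, the latter beyond the stretch printed. The PER3 window shown has a D-box at 177 bases. The NR1D2 window shown holds a pair of E-boxes, at 155 and 105 bases, and a D-box at 194 bases. The stretches printed for PER1, PER2, CRY2 and NR1D2 lie inside the deposited gene spans, outside their exons. Of the full PER1 and CRY2 windows printed in part, 31 and 126 bases lie in exons. The PER3 window shown and the other CRY2 window lie before their gene spans. Of the other members, CRY1, CLOCK and NR1D1 had an E-box-like match, at 89, 187 and 168 bases. The window of DBP, which also fell with progestin in siControl and siCEBPA cells, held no match to these clock elements. Both BMAL1 windows and the other windows of PER3, NR1D2 and CLOCK held none either. No window of the 10 genes held the steroid receptor half-site TGTTCT (12.4% of all windows), the C/EBP letters TTGCGCAA or TTGCATCA (0.903%) or the CRE letters TGACGTCA (1.65%), which says only that those letters are not in these windows.

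Library totals ran from 57364785 to 148624099 counted read pairs. One library stood apart in depth, siControl untreated replicate 2, and the ICRF libraries held 103156070 to 108066269. CEBPA itself checked the siRNA: it stood at 47.7 and 54.4 CPM (read pairs scaled to the library total times its TMM factor) in siControl untreated against 10.7 and 12.1 in siCEBPA untreated, and at 207 and 204 in siControl progestin against 57.5 and 62.2 in siCEBPA progestin. CEBPA mRNA still rose with progestin in siCEBPA cells, 5.23-fold against 3.98-fold in siControl, and ended above its siControl untreated level. All 10 luminal markers tested exceeded 1 CPM in every group. Their summed level was 11000 CPM in both ICRF untreated libraries, and 4990 and 5240 in ICRF progestin. It was 9820 to 10200 CPM in siControl untreated, 9610 to 10200 in siControl progestin, 8170 to 8180 in siCEBPA untreated and 7250 to 7520 in siCEBPA progestin. The near-equal siControl sums hide opposite moves of single markers. With progestin the siControl mean of KRT19 went from 2300 to 4250 CPM, and those of KRT8 and EPCAM were slightly higher. FOXA1 went from 441 to 73.1 CPM, PGR from 981 to 276 and ESR1 from 154 to 103, and KRT18, XBP1, GATA3 and ERBB3 were lower too. Of 13 markers of other cell types, COL1A1 and ACTA2 were above 1 CPM in every group and KRT5 in the siCEBPA progestin and ICRF progestin groups, while CD3E, PTPRC and HBB, markers of blood cells, stayed at or near 0.

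The levels of the members, as CPM scaled with TMM factors, are shown for each library in the plot of levels. Per kilobase of exon (RPKM), NR1D2 led the 10 genes in siControl untreated cells at 16.1 ± 0.341 (SD, n = 2). It was followed by CRY2 (11.4 ± 0.689), CRY1 (8.54 ± 0.378) and CLOCK (5.99 ± 0.0186). DBP was lowest, at 0.353 ± 0.00292 RPKM. In siControl progestin cells CRY2 led at 21.3 ± 0.129 RPKM, PER2 was next at 10.3 ± 0.162, and NR1D2 stood at 4.71 ± 0.0442. With ICRF and progestin NR1D2 led again, at 24.6 ± 0.787 RPKM. DBP was thinly counted, with 49 to 350 read pairs per library, so its values are the least precise of the 10.

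**Figure D1:**
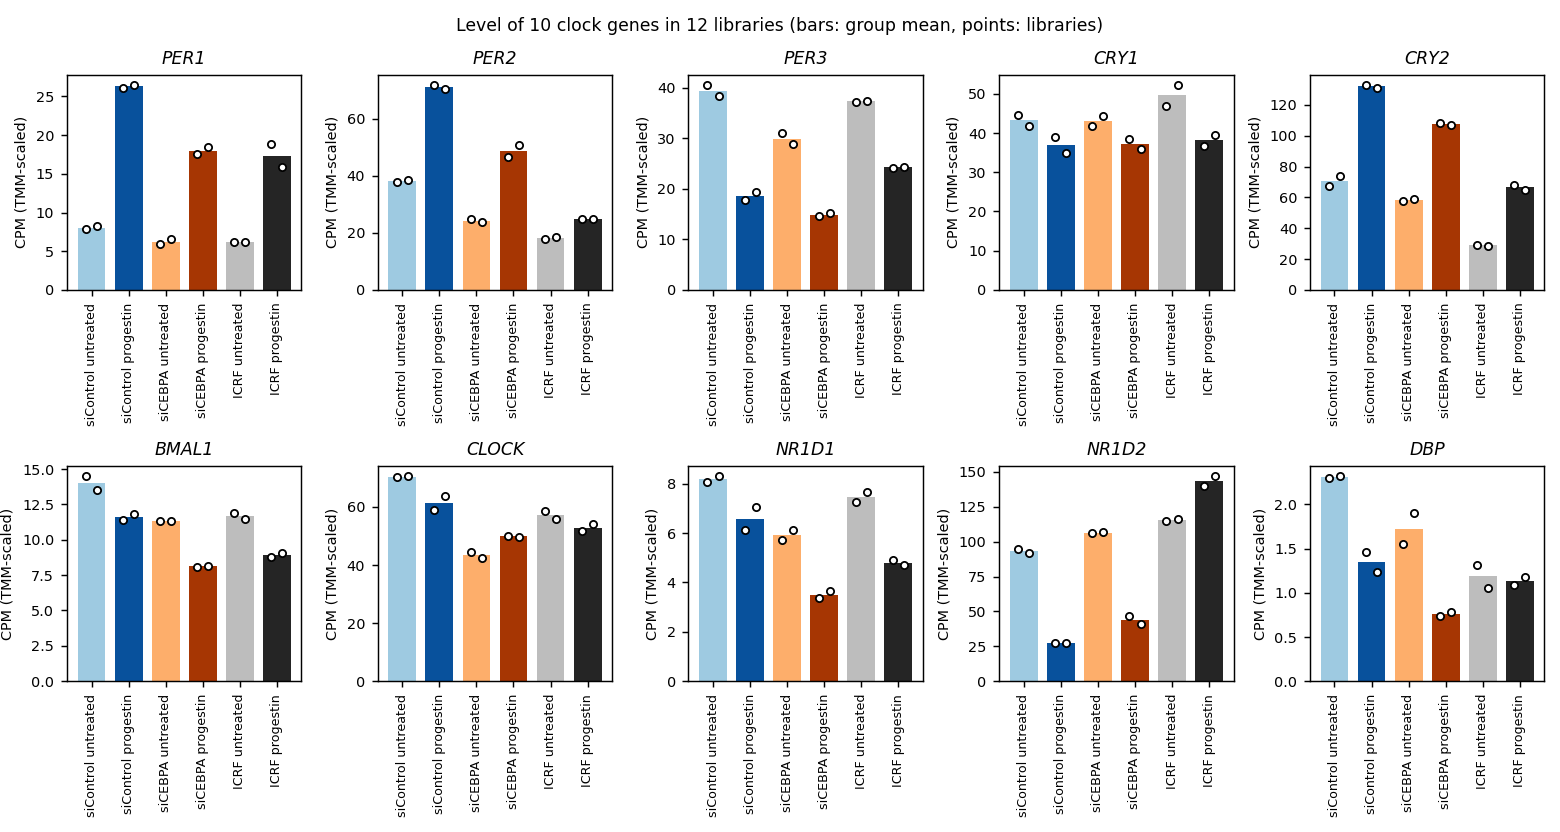
Level of each clock gene in CPM (TMM-scaled, linear axes that start at 0) in 6 groups; bars are group means and points the 2 libraries of a group. NR1D2 fell from a mean of 93.5 to 27.4 CPM with progestin in siControl cells and stood at 116 and 143 CPM in the ICRF groups.

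Progestin was first compared with no hormone in siControl cells. PER1, PER2 and CRY2 rose, and NR1D2, PER3, DBP, NR1D1, BMAL1, CRY1 and CLOCK fell. The test was edgeR's quasi-likelihood test with Benjamini-Hochberg adjustment over all genes, with a threshold of 0.05 on the adjusted p, and the sizes below are log2 fold changes ± SE. All 10 genes were called, against 58.5% of the 18351 genes tested (29.2% higher, 29.3% lower). The median absolute log2 change of the 10 genes was 0.84, against 0.40 over all genes tested. In siCEBPA cells it was 0.94 against 0.39, and with ICRF 0.41 against 0.38. The genes were chosen with earlier results of these data known, so these shares and medians describe them and test nothing.

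PER proteins are the repressors whose transcription the clock drives and which outside signals can reset. PER1 (ENSG00000179094, chr17:8140472-8156506) stood at 7.88 and 8.25 CPM in untreated libraries and at 26.1 and 26.5 with progestin. The groups were far apart, a 3.22-fold rise (1.69 ± 0.08, adjusted p = 1.35e-11). PER2 (ENSG00000132326, chr2:238244038-238290102) went from 37.8 and 38.7 CPM to 71.9 and 70.4, a 1.84-fold rise (0.88 ± 0.06, adjusted p = 9.56e-10). PER3 (ENSG00000049246, chr1:7784320-7845177), whose protein is less needed for the rhythm than the other two, went the other way. It stood at 40.6 and 38.3 CPM in untreated libraries and at 17.8 and 19.3 with progestin, a 2.14-fold fall (-1.10 ± 0.07, adjusted p = 8.66e-10). The 3 PER genes thus did not move together, and for each of them the treated and untreated libraries did not overlap.

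The CRY proteins are the strongest repressors of the CLOCK and BMAL1 dimer. CRY2 (ENSG00000121671, chr11:45847118-45883248) stood at 67.6 and 73.7 CPM in untreated libraries and at 133 and 131 with progestin. This was a 1.85-fold rise (0.89 ± 0.05, adjusted p = 1.28e-10). CRY1 (ENSG00000008405, chr12:106991364-107093829) had a small difference, from 44.6 and 41.9 CPM to 38.9 and 34.8. Its fall of 1.18-fold (-0.24 ± 0.07, adjusted p = 0.00517) lost its call without siControl untreated replicate 1 (adjusted p = 0.0516) or without siControl progestin replicate 2 (0.109).

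The activators BMAL1 and CLOCK fell by small amounts. BMAL1 (ENSG00000133794, chr11:13276652-13387266) went from 14.5 and 13.5 CPM to 11.4 and 11.8 (-0.28 ± 0.08, adjusted p = 0.00547). CLOCK (ENSG00000134852, chr4:55427903-55547138) went from 70.3 and 70.6 CPM to 58.9 and 63.8 (-0.21 ± 0.05, adjusted p = 0.00245). In neither gene did the libraries overlap. Exons of CLOCK overlap those of TMEM165 on the opposite strand, which stood at 41.6 to 85.3 CPM, a level near that of CLOCK itself. BMAL1 lost its call without siControl untreated replicate 1 (adjusted p = 0.0595) or progestin replicate 1 (0.0663), and CLOCK without progestin replicate 1 (0.0798).

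The 2 REV-ERB genes, which encode repressors of BMAL1, fell to very different extents. NR1D2 (ENSG00000174738, chr3:23945260-23980618) had the largest change of the 10 genes. It stood at 94.9 and 92.1 CPM in untreated libraries and at 27.3 and 27.6 with progestin, a 3.43-fold fall (-1.78 ± 0.06, adjusted p = 2.52e-13). NR1D1 (ENSG00000126368, chr17:40092787-40100725) went from 8.06 and 8.31 CPM to 6.11 and 7.07 (-0.33 ± 0.10, adjusted p = 0.0113). Its call was lost without siControl untreated replicate 2 (adjusted p = 0.0682) and without progestin replicate 1, where the log2 change was -0.21 (0.185). NR1D1 shares exonic bases with THRA on the opposite strand (30.3 to 57.1 CPM), and the counting was by strand, per the file headers.

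DBP (ENSG00000105516, chr19:48630030-48637438) encodes the D-box activator that is a direct output of the CLOCK and BMAL1 dimer. It went from 2.30 and 2.32 CPM to 1.46 and 1.23. The fall was 1.73-fold (-0.79 ± 0.17, adjusted p = 8.28e-04), with no overlap between the groups. Its exons overlap those of SPHK2 on the other strand, which stood at 6.85 to 11.1 CPM.

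**Figure D2:**
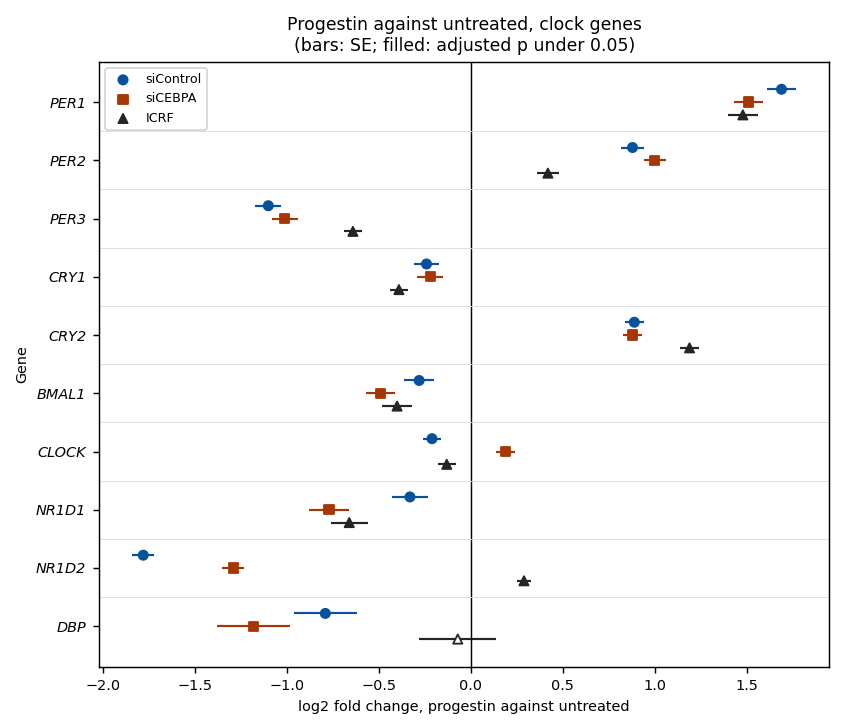
Log2 fold change of progestin against untreated for each clock gene in siControl, siCEBPA and ICRF cells; bars are SE and filled symbols have an adjusted p under 0.05 in edgeR's quasi-likelihood test. PER1 lies between 1.48 and 1.69 in all 3 settings, while NR1D2 lies at -1.78, -1.29 and 0.29.

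In siCEBPA cells PER1, PER2, CRY2 and CLOCK rose with progestin and the other 6 genes fell. All 10 were called, against 58.2% of all genes tested (29.9% higher, 28.4% lower). PER1 rose from 5.92 and 6.58 CPM to 17.5 and 18.5 (1.51 ± 0.08), PER2 from 24.7 and 23.7 to 46.7 and 50.7 (95% interval of the log2 change 0.88 to 1.12), and CRY2 from 57.7 and 58.9 to 108 and 107 (0.88 ± 0.05). Each of these 3 genes rose with no overlap between treated and untreated libraries. PER3 fell (-1.01 ± 0.07), as did DBP (-1.18 ± 0.20), NR1D1 (-0.77 ± 0.11), BMAL1 (-0.49 ± 0.08) and CRY1 (-0.22 ± 0.07). The adjusted p of these 8 genes ran up to 0.0106, that of CRY1, whose call was lost without siCEBPA untreated replicate 2 (0.116) or progestin replicate 2 (0.0946).

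The difference between the 2 responses, tested as an interaction, was called for 2 of the 10 genes, NR1D2 and CLOCK, both in the higher direction, against 7.24% of all genes tested (4.19% higher, 3.06% lower). NR1D2 went from 106 and 107 CPM in siCEBPA untreated to 46.4 and 41.2 in siCEBPA progestin, a fall of 1.29 on the log2 scale. That fall was smaller than in siControl by 0.49 ± 0.08 (adjusted p = 0.00109 in edgeR's quasi-likelihood test). The treated siCEBPA libraries lay above the treated siControl libraries and below every untreated one. CLOCK stood at 44.5 and 42.5 CPM in siCEBPA untreated and at 49.9 and 49.8 in siCEBPA progestin, a rise of 0.19 ± 0.05 where siControl cells had a fall. The rise depended on scaling, at 0.06 with upper quartile factors (adjusted p = 0.342) and 0.02 with no factors (0.711). The difference from siControl did not, at 0.40 ± 0.08 (adjusted p = 0.00315, up to 0.0359 over the alternatives tried).

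The other 8 differences missed the threshold. NR1D1 had the widest, -0.44 with a 95% interval of -0.76 to -0.12 (adjusted p = 0.103). The intervals were -0.41 to 0.06 for PER1, -0.05 to 0.29 for PER2, -0.12 to 0.29 for PER3 and -0.16 to 0.13 for CRY2. The DBP interval was far wider, -0.95 to 0.17. These intervals leave room for differences of those sizes, and a missed threshold does not show equal responses.

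The siCEBPA cells were then compared with siControl cells at the same hormone state. Without hormone 8 of the 10 genes were lower and 1, NR1D2, was higher, against 46.6% of all genes called (22.6% higher, 24% lower). With progestin the counts were again 8 lower and 1 higher, against 44.6% (22.5% higher, 22.1% lower). These comparisons share their libraries with the progestin comparisons above and are no separate support for them. The luminal marker sum was also lower in siCEBPA than in siControl cells in both states, with no overlap of libraries. Single markers did not move together. With progestin the means of KRT19 (2970 against 4250 CPM), KRT8 (1680 against 2490), KRT18, XBP1 and ERBB3 were lower in siCEBPA. Those of ESR1 (129 against 103 CPM), PGR (382 against 276), FOXA1 (96.2 against 73.1) and EPCAM (161 against 151) were higher, and GATA3 stood at 319 in both. The part of the markers in these differences was not tested.

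PER2 and CLOCK had the largest falls without hormone, -0.65 ± 0.06 (adjusted p = 1.75e-07) and -0.69 ± 0.05 (4.26e-08). PER2 went from 37.8 and 38.7 CPM in siControl to 24.7 and 23.7 in siCEBPA, and CLOCK from 70.3 and 70.6 to 44.5 and 42.5. Neither gene's libraries overlapped. PER1 (-0.36 ± 0.08), PER3 (-0.39 ± 0.07), NR1D1 (-0.46 ± 0.10), BMAL1 (-0.29 ± 0.08) and CRY2 (-0.27 ± 0.05) also fell. The call of BMAL1 was lost with no scaling factors (-0.19, adjusted p = 0.0514). DBP stood at 2.30 and 2.32 CPM against 1.55 and 1.90 (-0.42 ± 0.16, adjusted p = 0.0465), a call that 8 of 15 alternatives lost.

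With progestin NR1D1 had the largest fall with siCEBPA, from 6.11 and 7.07 CPM to 3.36 and 3.64 (-0.90 ± 0.11, adjusted p = 8.71e-06). Its paralog NR1D2 went the other way, from 27.3 and 27.6 CPM to 46.4 and 41.2, a 1.61-fold rise (0.69 ± 0.06, adjusted p = 1.21e-07). So the mRNAs of the 2 REV-ERBs had opposite differences between the same groups. PER1 (-0.54 ± 0.07), PER2 (-0.53 ± 0.06), BMAL1 (-0.50 ± 0.08), PER3 (-0.30 ± 0.07), CLOCK (-0.28 ± 0.05) and CRY2 (-0.28 ± 0.05) were lower. DBP was lower too (-0.80 ± 0.21, adjusted p = 0.00448), but without siControl progestin replicate 1 its call was lost (-0.69 ± 0.25, adjusted p = 0.0518). CRY1 was not called in either state, with 95% intervals of -0.13 to 0.15 without hormone and -0.11 to 0.17 with it.

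**Figure D3:**
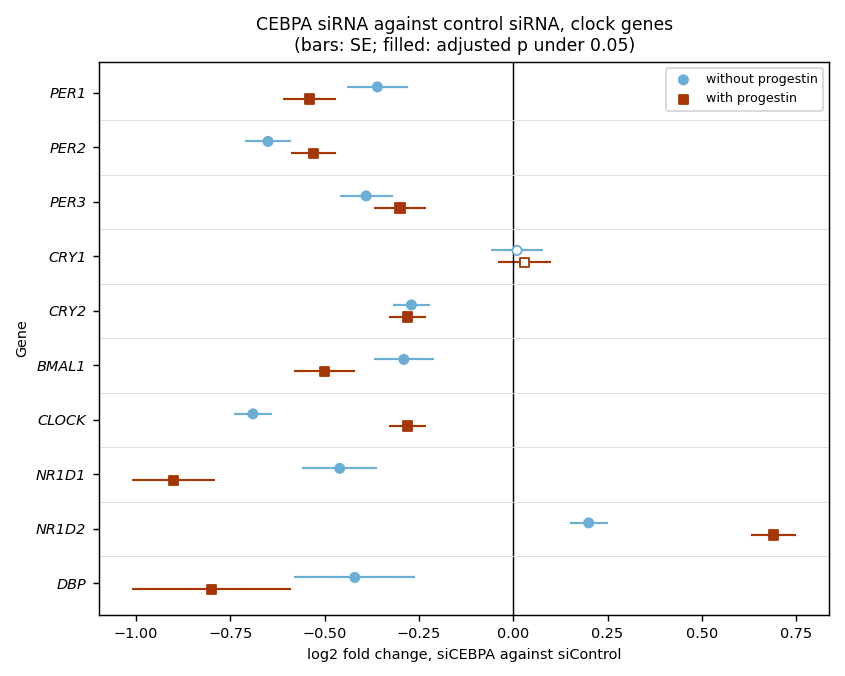
Log2 fold change of siCEBPA against siControl for each clock gene, without and with progestin; bars are SE and filled symbols have an adjusted p under 0.05. NR1D2 lies on the higher side (0.20 and 0.69), CRY1 near 0, and the other 8 genes on the lower side.

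In cells labelled ICRF, PER1, CRY2, PER2 and NR1D2 were higher with progestin, and NR1D1, PER3, BMAL1, CRY1 and CLOCK were lower. That is 9 of 10 genes called, against 61.4% of the 18556 genes tested (31.3% higher, 30% lower). NR1D2 stood at 115 and 116 CPM in untreated libraries and at 140 and 147 with progestin, so here it was higher with hormone (0.29 ± 0.04, adjusted p = 2.78e-09). The 2 treated ICRF libraries held more NR1D2 than any other of the 12 libraries. CRY2 went from 29.2 and 28.6 CPM to 68.2 and 65.1, a 2.28-fold rise (1.19 ± 0.05, adjusted p = 3.23e-25). PER1 went from 6.21 and 6.13 CPM to 18.8 and 15.9 (1.48 ± 0.08, adjusted p = 1.19e-19). Both CRY2 and PER1 rose with no overlap of libraries.

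PER2 rose 1.34-fold with ICRF, from 17.9 and 18.7 CPM to 25.0 and 24.7 (0.42 ± 0.06). PER3 fell from 37.2 and 37.4 CPM to 24.2 and 24.4 (-0.64 ± 0.05). NR1D1 (-0.66 ± 0.10), BMAL1 (-0.40 ± 0.08) and CRY1 (-0.39 ± 0.05) fell, with adjusted p up to 2.40e-05. CLOCK fell by 0.13 ± 0.05 on the log2 scale (adjusted p = 0.0132), a call lost without ICRF untreated replicate 1 (0.217), without ICRF progestin replicate 1 (0.0736) or in the fit of all 12 libraries (0.0535). DBP stood at 1.32 and 1.05 CPM in untreated libraries and at 1.09 and 1.18 with progestin. Its groups overlapped (-0.07, 95% interval -0.49 to 0.34, adjusted p = 0.783).

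The ICRF response was tested against the siControl response in a fit of all 12 libraries. Of the 10 genes 5 differed (4 higher, 1 lower), close to the 48.9% of the 19003 genes tested (24.9% higher, 24% lower). The median absolute difference of the 10 genes was 0.31, against 0.44 over all genes tested. NR1D2 differed by 2.08 ± 0.07 (adjusted p = 3.28e-15), a 4.22-fold gap between the responses, and it kept its sign and call in every alternative tried. PER3 fell less with ICRF (0.47 ± 0.09, adjusted p = 1.08e-04) and PER2 rose less (-0.46 ± 0.08, adjusted p = 3.92e-05), whereas CRY2 rose more (0.31 ± 0.06, adjusted p = 4.75e-04). The difference of DBP (0.72 ± 0.25, adjusted p = 0.0225) lost its call in DESeq2 (0.0722) and without siControl untreated replicate 2 (0.0565), siControl progestin replicate 2 (0.0991), ICRF untreated replicate 2 (0.108) or ICRF progestin replicate 2 (0.0867). PER1 missed the threshold (-0.21, 95% interval -0.45 to 0.03), but passed it without ICRF progestin replicate 1 (-0.37, adjusted p = 0.0136). So did NR1D1 (-0.32, adjusted p = 0.055), which passed it in 9 alternatives. Besides ICRF, the siRNA, the arrest and the time label differ between these arms, and the effect of each cannot be told apart.

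**Figure D4:**
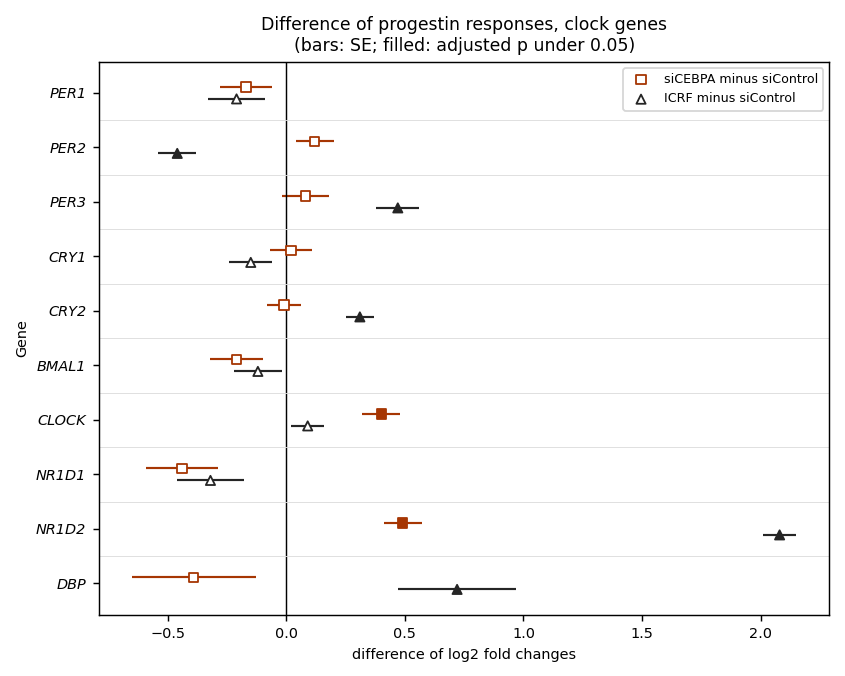
Difference of the progestin response (log2 fold change) from that in siControl cells, for siCEBPA and for ICRF cells; bars are SE and filled symbols have an adjusted p under 0.05. Both sets of points share the siControl libraries; NR1D2 lies at 0.49 with siCEBPA and at 2.08 with ICRF.

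Between groups, the order of levels differed by gene. PER1 was highest in siControl progestin (mean 26.3 CPM). The libraries of siCEBPA progestin and ICRF progestin (means 18.0 and 17.3) overlapped, and so did those of siCEBPA untreated and ICRF untreated (6.25 and 6.17). For CRY2 the ICRF progestin mean of 66.6 CPM did not separate from the siControl untreated mean of 70.6. The group means of CRY1 ranged from 36.8 to 49.7 CPM, and the 3 progestin groups overlapped. DBP was highest in siControl untreated (2.31 CPM) and lowest in siCEBPA progestin (0.762 CPM). Neighbours also overlapped for BMAL1 (ICRF untreated and siControl progestin), NR1D1 (siControl progestin and siCEBPA untreated) and CRY1 (siControl untreated and siCEBPA untreated). For DBP, siControl progestin overlapped ICRF untreated, which in turn overlapped ICRF progestin. For NR1D2, PER3, PER2 and CLOCK no neighbouring groups overlapped, though the libraries of ICRF progestin and siCEBPA untreated met at 24.7 CPM for PER2. These orders and overlaps are those of TMM-scaled levels. With no scaling factors 26 of the 60 group levels moved by 1 SD or more, and the order was not examined there.

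Across the 12 libraries, as a description, BMAL1 varied most closely with NR1D1 (Pearson r = 0.95 of log2 CPM) and with DBP (0.87). PER2 varied with CRY2 (r = 0.93) and against NR1D2 (-0.92). These correlations share the same 6 groups of 2 libraries and the same scaling. Among 10817 genes with a mean of at least 5 CPM, those closest to NR1D2 were NAT1 (r = 0.993), TRIM69 (0.986) and HIBADH (0.984). Those closest to PER1 were BRF2 (0.994), FAM104A (0.992) and CRK (0.991), and to CRY2 IRGQ (0.993), ZNF324 (0.990) and C1orf116 (0.987). PER3 was most like DRAM2 (0.984), and DBP, with lower values throughout, was most like DCAF11 (0.956). With no scaling factors the nearest gene changed for PER1, PER3 and DBP and not for CRY2 and NR1D2.

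A list of 28 other clock pathway genes, also chosen with earlier results of these data known, gave the surroundings of the 10. Of 10 further transcription factors and repressors, 1 rose and 2 fell with progestin in siControl, 1 rose and 2 fell in siCEBPA, and 3 rose and 4 fell with ICRF. The called shares were 30%, 30% and 70%, against 58.5%, 58.2% and 61.4% of all genes. TEF, a D-box activator related to DBP, fell in all 3 settings (-1.50 ± 0.08, -1.71 ± 0.08 and -0.52 ± 0.07). NFIL3, the repressor at D-boxes, rose in all 3 (0.82 ± 0.08, 1.32 ± 0.09 and 0.42 ± 0.07). Adjusted p-values of these 6 tests ran up to 4.85e-07 (edgeR). HLF, of the same list, did not follow TEF. It was not called in siControl (-0.47 ± 0.26) or siCEBPA (0.03 ± 0.23) and rose with ICRF (0.93 ± 0.15). Its group means were low, from 0.605 to 3.33 CPM. NPAS2, which can stand in for CLOCK, fell in siControl (-0.78 ± 0.18) and siCEBPA (-0.74 ± 0.19), and with ICRF was at -0.06 ± 0.17. The medians of this list were -0.24, -0.09 and -0.09, against -0.03, -0.03 and -0.01 over all genes. With no scaling factors, a check added after seeing the data, 1 rose and 5 fell in siControl and 1 rose and 4 fell in siCEBPA.

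Of 12 genes that set the stability of clock proteins, 8 rose and 2 fell in siControl, 9 and 1 in siCEBPA, and 5 and 5 with ICRF. In each setting 83.3% were called, against 58.5%, 58.2% and 61.4% of all genes, and the medians were 0.20, 0.18 and 0.00. The siRNA counts rested on the scaling: with no factors 4 rose and 3 fell in siControl, and 5 rose and 3 fell in siCEBPA. BTRC, a ubiquitin ligase subunit that marks PER proteins for decay, rose in all 3 settings (0.62 ± 0.05, 0.45 ± 0.05 and 0.51 ± 0.05). FBXW11, of the same list, rose in siControl and siCEBPA (0.46 ± 0.04 and 0.31 ± 0.04) but fell with ICRF (-0.36 ± 0.04). CSNK1E, a kinase of PER proteins, rose in siControl and siCEBPA (0.26 ± 0.06 and 0.35 ± 0.06) and fell with ICRF (-0.45 ± 0.05). With no scaling factors the value of CSNK1E in siControl was 0.11 (adjusted p = 0.13, edgeR). CSNK1D, of the same list, was not called in siControl (-0.06 ± 0.04) or siCEBPA (0.00 ± 0.04) and rose with ICRF (0.29 ± 0.04). USP2, a deubiquitinase of clock proteins, fell more in siCEBPA (-1.15 ± 0.09) than in siControl (-0.34 ± 0.08), a difference of -0.81 ± 0.12 (adjusted p = 4.90e-04, edgeR). Of 6 cofactors, 1 rose and 4 fell in each siRNA setting, and 2 rose and 3 fell with ICRF. This too was 83.3% called in each setting, against 58.5%, 58.2% and 61.4% of all genes, with medians of -0.18, -0.17 and -0.15. With no scaling factors 0 rose and 5 fell in both siRNA settings. SIRT1, a deacetylase that acts on the clock, was among the falls in siControl (-0.17 ± 0.06) and rose with ICRF (0.90 ± 0.04). TIMELESS, better known in human cells for DNA replication, fell in all 3 (-0.71 ± 0.05, -0.36 ± 0.05 and -0.34 ± 0.03).

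**Figure D5:**
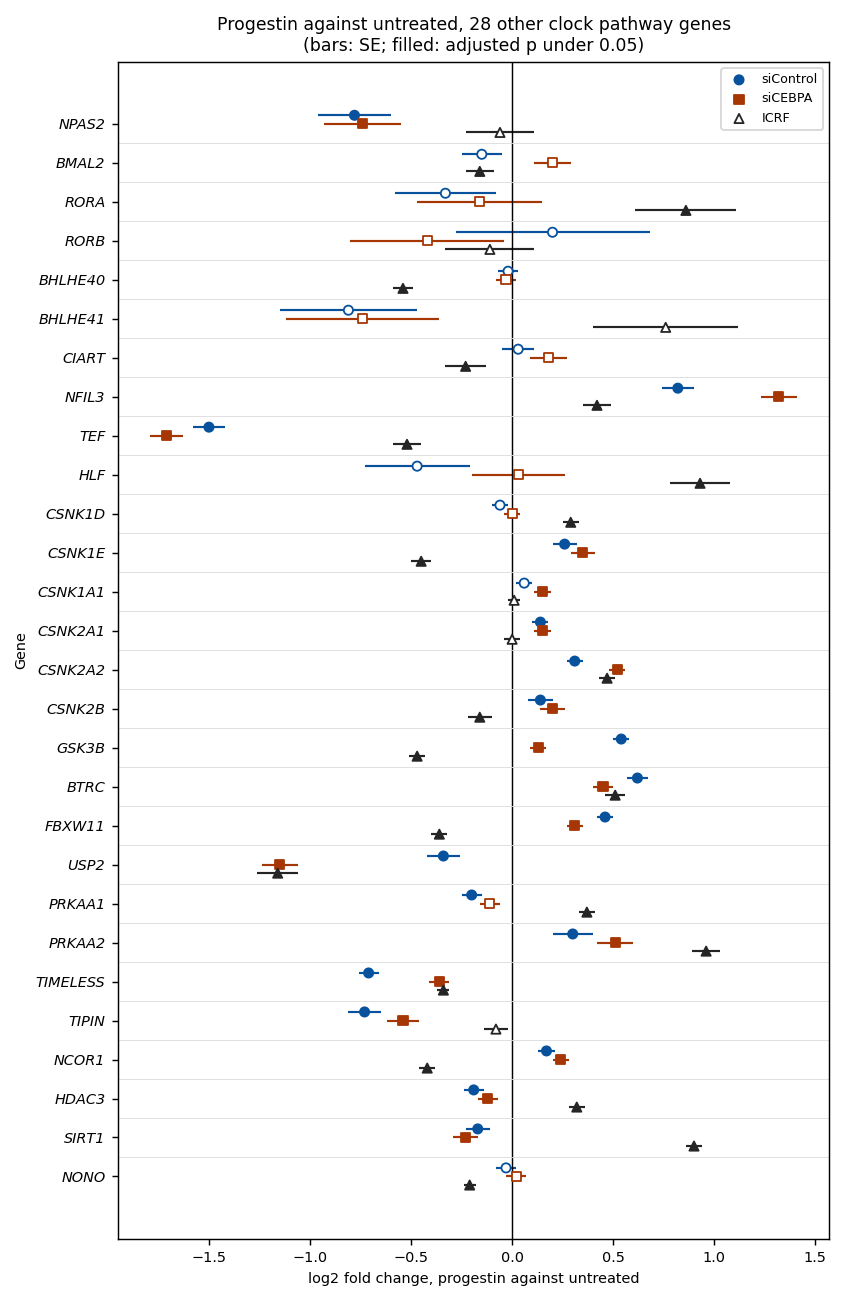
Log2 fold change of progestin against untreated for 28 other clock pathway genes in siControl, siCEBPA and ICRF cells; bars are SE and filled symbols have an adjusted p under 0.05. TEF lies on the lower side in all 3 settings and NFIL3 on the higher side, while SIRT1 changes side with ICRF.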

How the data were processed

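The 12 RNA-seq libraries were used; ChIP-seq samples were not used here. The deposited values are raw counts of read pairs per gene, made by the authors with featureCounts 1.5.1 (paired mode, reverse strand) on GENCODE 24 genes and hg38 from STAR alignments, per the file headers. Reads with several alignments were given no option there. Trimmomatic is also named, with no version, per the submitters' processing notes. Genes were filtered with filterByExpr, scaled with TMM factors and tested with edgeR 4.0.16 (glmQLFit with robust estimation, glmQLFTest, Benjamini-Hochberg) in R 4.3.3, in fits of 8 siRNA, 4 ICRF or all 12 libraries. SE was the log2 fold change over the square root of F, and 95% intervals used the fit's degrees of freedom. Alternatives were other scalings, DESeq2 1.42.0, other filters, a replicate block, other sets of libraries and leaving out each library. The test was tested on simulated data with 200 changed genes, and 75.4% to 94.4% of 1.5-fold changes were recovered over the 7 comparisons. The simulated counts were negative binomial with the fit's own dispersions, and the changed genes, all above a minimum level, changed in a single group. They were a smaller share than the real comparisons called, so the recovery does not cover errors from scaling. All 10 members are named, the context lists by any member, and the genes most alike by the 3 highest correlations of members called with at least a 2-fold change before rounding, which PER2 in siCEBPA cells narrowly missed. A further 2 genes first placed in the context lists are not reported here and are in no count or plot. The members and lists were chosen with earlier results of these data known. Motifs were searched in RefSeq promoter windows.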

Additional observations from a re-analysis of the deposited data

Results flagged for a closer look

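The progestin response of 2 of the 10 clock genes differed between siCEBPA and siControl cells in edgeR's quasi-likelihood interaction test. Of all genes tested 7.24% were called there. CLOCK, the partner of BMAL1, differed by 0.40 on the log2 scale, and NR1D2, which encodes REV-ERBβ, by 0.49. Between ICRF and siControl cells 5 of the 10 clock genes differed, close to the 48.9% of all genes tested. NR1D2 differed by 2.08, DBP by 0.72, PER3 by 0.47, CRY2 by 0.31 and PER2 by -0.46. The call of DBP was lost in 5 of 19 alternatives. The luminal marker sum was 11000 CPM in ICRF untreated libraries and 4990 and 5240 in ICRF progestin, and its part in these differences was not tested.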

How the results depend on the processing

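Of 70 clock gene results, 48 kept their direction and their side of the threshold under every alternative tried. Over 1113 alternatives 29 lost a call, 12 gained one and 17 changed sign, the last only in results that were not called. The number of genes whose response differed between siCEBPA and siControl was 1329; leaving out 1 library gave 692 to 1381, with 692 without siControl progestin replicate 1 and 779 without replicate 2. Replicate numbers gave no sign of pairing the samples (correlations of -0.02 to 0.05 between groups). The labels do not say whether samples were paired, and these correlations cannot settle it. With the replicate number as a block the same count was 2271 and NR1D1 was called in it (-0.44, adjusted p = 0.0415 in edgeR) and in the ICRF difference (0.0443); no other clock gene call changed.

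CRY1 changed sign in the siRNA comparison without hormone (-0.02 with no low-count filter, -0.04 to 0.04 leaving out 1 library), in that with progestin (-0.05 to 0.10) and in the siCEBPA difference (-0.05 to 0.10). The siCEBPA difference of CRY2 was 0.00 with no low-count filter and -0.08 to 0.05 leaving out 1 library. DBP with ICRF ran from -0.23 to 0.09. With no scaling factors the ICRF differences of CRY1 and BMAL1 were 0.00 and 0.03, and that of CLOCK was called (0.24, adjusted p = 0.00634 in edgeR). The causes were not tested.

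Scaling moved the median log2 change of all genes with progestin from -0.03 to -0.15 (upper quartile) or -0.19 (no factors) in siControl, and the share of calls that were higher from 50.0% to 38.2% or 33.9%. In siCEBPA that share went from 51.3% to 36.9% or 33.3%. With no factors it went from 48.5% to 65.3% for siCEBPA against siControl without hormone, from 50.5% to 64.9% with it, and from 50.9% to 65.2% for the ICRF difference, whose median moved from 0.02 to 0.17. DBP was not tested under the filter of at least 5 CPM. With 2 libraries a group, and 49 to 350 read pairs for DBP, small changes of that gene are beyond these data.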
